A study of Mus musculus with 6 samples.

Results

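Interferon-stimulated genes and the genes of class I antigen presentation were examined in the glomeruli of dendrin knockout mice. The set comprised 39 genes that are known as interferon-induced or as part of antigen presentation. They were chosen by this known function, but with earlier results of these data known. Values measured on these arrays entered the rule only to choose the probe set that stood for each of these genes. A probe set assigned to 1 gene alone was found for 37 of them, out of 18194 genes that the arrays represent in this way. The other 2, Isg15 and Ifi44, were not analysed here. Glomeruli of 3 dendrin knockout mice and 3 wild type littermate mice were compared, all 13 months old, with 1 array per mouse. The labels give the genetic background of both groups as 129S6SvEv/C57BL6, and by the methods of the study the line was backcrossed onto C57BL/6. In the knockout the whole coding sequence of dendrin is replaced by an eGFP and neomycin cassette in every cell of the animal, and no mouse received a treatment. Isolated glomeruli hold podocytes, endothelium and mesangium together with the leukocytes and tubule fragments that come with them, so that fewer cells of a type and less RNA per cell cannot be told apart.

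Interferons are secreted proteins that alert cells to infection. Type I interferons act through a receptor and the kinases Jak1 and Tyk2 on a complex that contains Stat2 and Irf9 and binds the interferon-stimulated response element (ISRE) in the promoters of its targets. Interferon gamma acts mainly through the gamma-activated sequence (GAS) in the promoters of its targets, and induces Irf1, the immunoproteasome subunits and the peptide transporter. Class I molecules, made of a heavy chain and β2-microglobulin, display peptides from inside the cell to cytotoxic T cells, and endothelial cells of the kidney carry them at rest.

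The interferon response element is written out here for 6 of the genes, since it is the element through which type I interferons act and was not used to choose the set. The promoters are those of RefSeq on GRCm38.p6, 250 bases before to 50 bases after the start of a gene, and 31 of the 39 genes had one. The ISRE was searched as GAAANNGAAA on both strands, and matches that overlap each other were counted once per gene. It was present in the promoters of 15 of these 31 genes (48.4%), against 3.99% of all 27025 genes with a promoter. The GAS, searched as TTCNNNGAA, which reads the same on both strands, was found in 8 of the 31 (25.8%) against 9.55% of all genes. A match is a description of the letters and not a sign of binding. In each of the following windows of 60 bases the matches to the ISRE are in capitals, on the strand of the gene and ending before its start.
Ifit1, chr19:34640769-34640828, plus strand: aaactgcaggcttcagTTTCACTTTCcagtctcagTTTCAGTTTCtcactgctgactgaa
Oas1a, chr5:120907526-120907585, minus strand: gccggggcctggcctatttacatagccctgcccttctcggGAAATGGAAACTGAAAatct
Bst2, chr8:71537565-71537624, minus strand: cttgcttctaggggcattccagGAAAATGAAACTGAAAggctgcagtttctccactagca
Gbp3, chr3:142559977-142560036, plus strand: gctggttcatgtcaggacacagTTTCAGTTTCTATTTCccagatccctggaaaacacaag
Cxcl10, chr5:92349068-92349127, minus strand: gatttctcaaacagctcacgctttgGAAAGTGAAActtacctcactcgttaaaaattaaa
B2m, chr2:122147523-122147582, plus strand: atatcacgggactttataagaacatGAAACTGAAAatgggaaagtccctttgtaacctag
The element stood 75 bases before the start in Ifit1, 4 in Oas1a, 114 in Bst2, 29 in Gbp3, 203 in Cxcl10 and 129 in B2m, counted from the match nearest to the start. In Oas1a, Bst2 and Gbp3 a pair of matches overlapped. No match of these letters lay in the promoter windows of H2-D1, H2-K1, Psmb9, Tap1 or Samd9l.

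The labels were checked with Ddn, the gene of dendrin, which was 3.80, 3.81 and 3.80 (log2) in knockout and 12.22, 12.81 and 12.31 in control glomeruli, a difference of -8.64 (adjusted p = 0.0197 from limma). The values are log2 intensities after GCRMA, an array normalization that corrects for background and sets probe sets without signal to a common low level. A probe set whose mean over the 6 arrays is under log2 4 is called dim here, which applies to 25482 of the 45101 probe sets. The 6 podocyte marker genes measured had means of 12.51 to 15.24, and the 9 endothelial ones of 9.63 to 14.47, as the label of glomeruli requires. Control 2 stood apart from the other arrays. On this array 15 of 17 leukocyte marker genes that are not dim were at their lowest, and all 5 such markers of the distal nephron at their highest. For genes of the set whose sign turned without this array, and for some others that it moved, the value without it is given too.

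Most of the genes gave a signal above background in aged glomeruli of both genotypes. Of the 37 genes, 34 had a mean of at least log2 4. The dim ones were Mx1 and Mx2, the antiviral dynamin-like GTPases, and Oas2, a synthetase of the signal that activates RNase L. Their means were 2.59, 2.24 and 3.20. Mx1 is known to be defective in many laboratory mouse strains, C57BL/6 among them. The interferon genes Ifnb1 and Ifng were also dim, at the lowest value of 2.20 on all arrays. No other interferon gene was examined here.

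**Figure D1:**
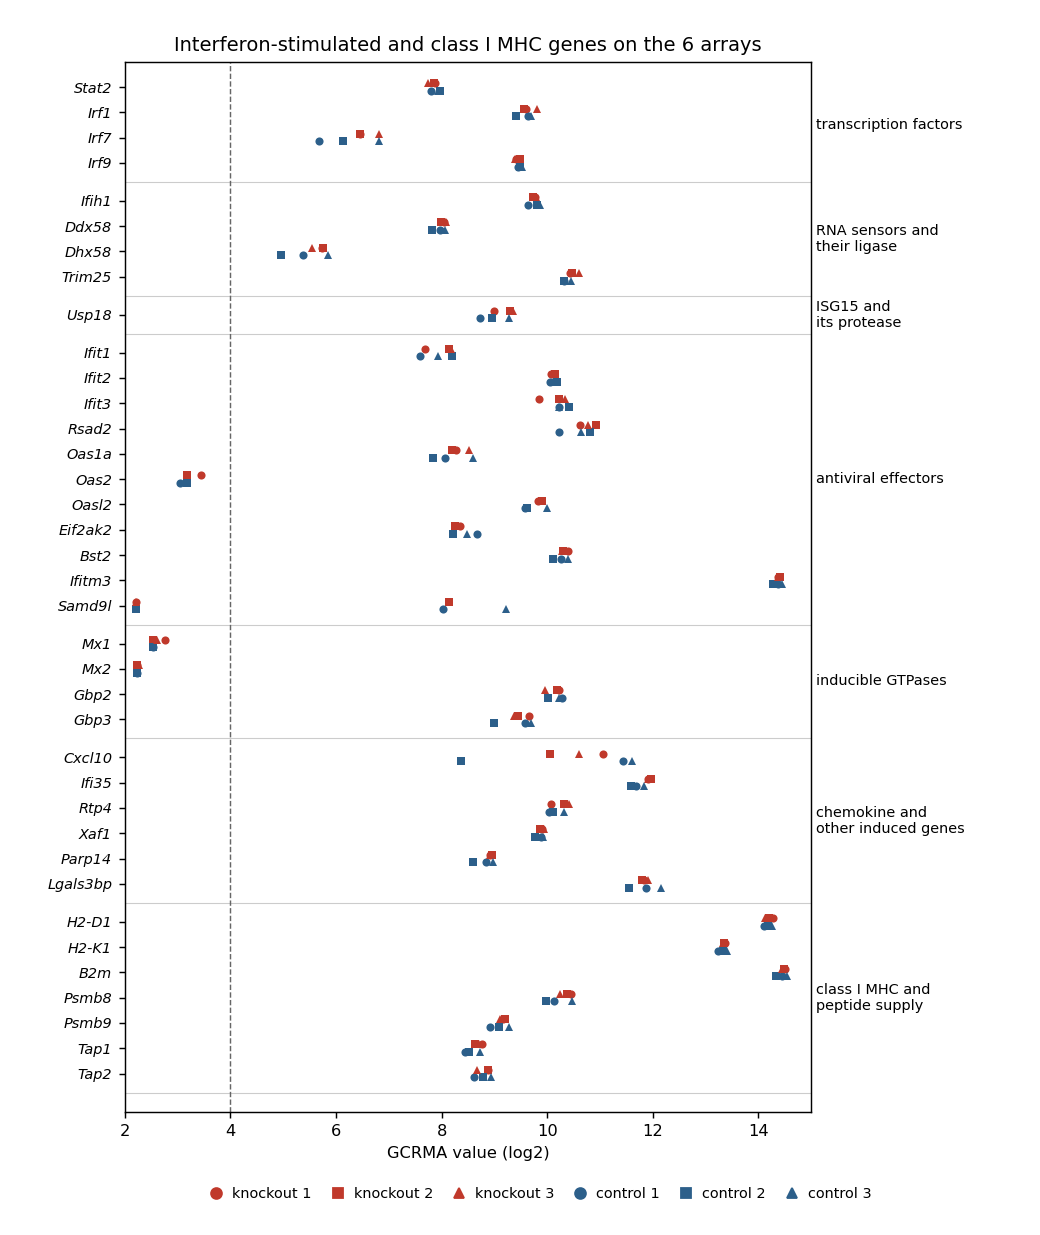
GCRMA value (log2) of each of the 37 genes on each array, grouped by role, with knockout mice in red above control mice in blue and 1 symbol per replicate. The dashed line marks log2 4, under which a signal is dim. Red and blue points overlap for each gene but Ifi35, and Samd9l lies at the floor on 3 arrays and near 8 to 9 on the other 3.

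No gene of the set was called different between knockout and control glomeruli. Each difference (log2) is the mean of the knockout mice less that of the control mice, from limma fitted over all probe sets, with the standard error (SE) and the 95% confidence interval of that fit. None of the 37 passed the criterion used in the study, a fold over 1.5 and an unadjusted p under 0.05, which 0.18% of all 45101 probe sets passed and 0.382% of those not dim. None passed an adjusted p of 0.05, which 0.00222% of all probe sets did, and all 37 adjusted p values from limma were 1. At an unadjusted p under 0.05, limma counted 1 gene, Ifi35, and so did SAM, the test of the study's methods, with the background share at 8.12% of the probe sets not dim by limma. The median difference of the 34 genes not dim was 0.071, beside 0.015 over the 19619 probe sets not dim. Of the 34 genes not dim, 26 were above 0 and 8 below (76.5% above), beside 55.1% of the probe sets not dim. The genes were read in the same 6 animals and are not independent of each other. The interval of the difference lay wholly within 1.5-fold in either direction for 25 of these 34 (73.5%), beside 77% of the probe sets not dim. For the remaining 9 genes the interval reached past 1.5-fold, so that a difference of that size was not excluded. With 3 mice against 3, a two-sided exact permutation test cannot give a p under 0.1.

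**Figure D2:**
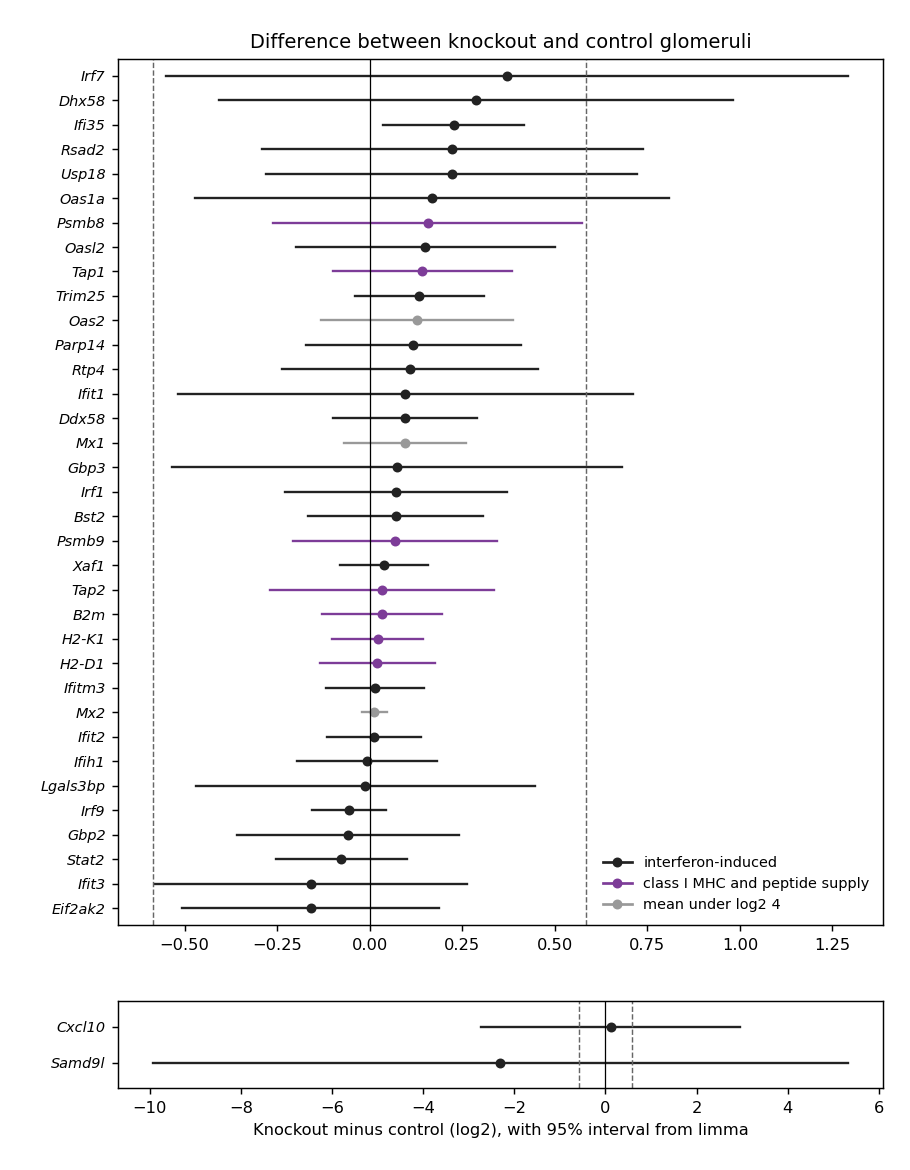
Difference between knockout and control (log2) with its 95% interval from limma for each of the 37 genes. Samd9l and Cxcl10 are drawn on a wider axis below. Dashed lines mark 1.5-fold in either direction, and the interval excludes 0 for Ifi35 alone.

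Among the transcription factors of the pathway, Irf7 varied most. Irf7, the factor that amplifies type I interferon production, was 6.45, 6.46 and 6.82 (log2) in knockout mice and 5.67, 6.13 and 6.82 in control mice. The groups overlapped, since control 3 was as high as the highest knockout mouse, while controls 1 and 2 were below all knockout mice. Its difference of 0.37 (SE 0.34, interval -0.55 to 1.29) was the highest of the 37 genes, but smaller than the spread between the control mice (SD 0.58, n = 3). Without control 3 it was 0.67 and passed the fold and p criterion (unadjusted p = 0.0498 from limma over all probe sets, adjusted p = 1), and without control 1 it was 0.10. Stat2 and Irf9, which belong to the complex that binds the ISRE, differed by -0.076 (SE 0.066) and -0.055 (SE 0.037). Irf1, which drives class I genes, was 9.65 ± 0.13 (SD, n = 3) in knockout and 9.58 ± 0.15 in control glomeruli, a difference of 0.071 (SE 0.11), or -0.015 without control 2. Thus 2 of the 4 factors were above 0 and 2 below, and each interval included 0.

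The cytosolic sensors of viral RNA were not dim, and the interval of each difference included 0. Ifih1 and Ddx58, which encode the receptors MDA5 and RIG-I, differed by -0.0063 (SE 0.070) and 0.096 (SE 0.072), with intervals of -0.19 to 0.18 and -0.099 to 0.29. Without control 2 they were at 0.013 and 0.029. Dhx58, which encodes their regulator LGP2, was 5.74, 5.75 and 5.55 in knockout mice and 5.37, 4.96 and 5.86 in control mice. All knockout values lay above those of controls 1 and 2 and below that of control 3. The difference was 0.29 (SE 0.26, interval -0.41 to 0.98). It was 0.071 without control 2 and 0.52 without control 3 (unadjusted p = 0.0458 from limma). Trim25, the ubiquitin ligase that acts on RIG-I, was 10.43, 10.48 and 10.60 in knockout and 10.32, 10.32 and 10.46 in control glomeruli. Only the value of control 3 overlapped with the knockout range, and the difference was 0.13 (SE 0.065, interval -0.040 to 0.31, unadjusted p = 0.101 from limma). Usp18, the protease that removes Isg15 from proteins and dampens interferon signalling, was 8.99, 9.29 and 9.34 in knockout and 8.73, 8.95 and 9.27 in control mice, a difference of 0.22 (SE 0.19) with overlapping groups.

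The 11 antiviral effectors measured had differences in both directions, and each interval included 0. For 8 of them the difference was above 0 and for 3 below, and for 4 of the 11 the sign turned when 1 array or another was left out. Rsad2 (viperin, an inhibitor of viral replication) was 10.62, 10.93 and 10.78 in knockout mice and 10.21, 10.81 and 10.64 in control mice, a difference of 0.22 (SE 0.19). Control 1 alone was low, and without it the difference was 0.054. Ifit1, which binds foreign RNA, and its relative Ifit3 differed in opposite directions, by 0.096 (SE 0.23) and -0.16 (SE 0.16). Knockout 1 was low for both. Its values were 7.68 for Ifit1 and 9.84 for Ifit3, where the other knockout mice were at 8.14 and 8.18 and at 10.23 and 10.33. For Ifit1 control 1 was lower still, at 7.59, and without control 1 the difference of Ifit1 was -0.060. Ifit2, of the same family, spanned only 0.15 over the 6 arrays and differed by 0.011 (SE 0.047).
Eif2ak2, the kinase PKR that halts translation upon binding double-stranded RNA, had the lowest difference among the effectors whose signal was present on all arrays. It was 8.35, 8.26 and 8.29 in knockout and 8.67, 8.22 and 8.49 in control glomeruli, a difference of -0.16 (SE 0.13). Without control 1 it was -0.053. Without control 2, where the knockout values lay wholly below the control values, it was -0.28 (unadjusted p = 0.0292 from limma over all probe sets, adjusted p = 0.751), while its other probe sets were at 0.092 and -0.11 on all 6 arrays. Oas1a and Oasl2, of the oligoadenylate synthetase family, were at 0.17 (SE 0.24) and 0.15 (SE 0.13), and at 0.0039 and 0.091 without control 2. Bst2 (tetherin, which holds budding virus at the cell surface) was at 0.070 (SE 0.088), and at -0.0028 without control 2. Ifitm3, which blocks viral entry, had values of 14.37, 14.41 and 14.37 in knockout and 14.37, 14.28 and 14.46 in control mice. Its difference was 0.015 (SE 0.049, interval -0.12 to 0.15), and -0.028 without control 2.

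Samd9l stood out from the other genes, as its signal was present in some mice and absent in others of both genotypes. Samd9l, an interferon-induced inhibitor of viral replication and of cell growth, was 2.20, 8.14 and 2.20 in knockout mice 1, 2 and 3 and 8.03, 2.21 and 9.22 in control mice 1, 2 and 3. Thus it was at the floor in 2 knockout mice and 1 control mouse and well above background in 1 knockout mouse and 2 control mice. The lowest of the high values exceeded the highest of the low ones by 5.82 (log2). Its range of 7.01 over the arrays was exceeded by only 4 of the 45101 probe sets. The difference of -2.30 between the groups had an SE of 2.83 and an interval of -9.93 to 5.32, ran from -4.44 without control 2 to -0.94 without control 3, and the groups overlapped over nearly the whole range. Of all probe sets, 4 separated the same 3 arrays from the other 3 by more than 1 (log2) in the same direction as Samd9l, which were that of Samd9l and 3 of the pseudogene Pisd-ps3. For the probe set of Pisd-ps3 with the widest gap, the values were 4.44, 8.89 and 3.85 in knockout and 7.77, 3.25 and 9.07 in control mice. Within 100 kb of Samd9l on GRCm38.p6, Gm20559 was highest in the same 3 mice, at 6.46, 6.88 and 6.21 in knockout and 7.01, 6.44 and 7.89 in control mice. Vps50, also within this distance, was nearly constant, at 8.42, 8.51 and 8.48 and at 8.50, 8.46 and 8.49. These neighbours and Pisd-ps3 were picked after their values were seen, and what divides the mice was not tested.

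Cxcl10, which encodes a chemokine that attracts T cells to tissue under interferon gamma, varied more between mice than between genotypes. Its values were 11.06, 10.06 and 10.61 in knockout mice and 11.43, 8.36 and 11.60 in control mice. Control 2 was far below all others, while controls 1 and 3 were above every knockout mouse. The difference was 0.11 (SE 1.05, interval -2.73 to 2.95) on all arrays. It was -0.94 without control 2 (unadjusted p = 0.0715 from limma), 0.59 without control 1 and 0.68 without control 3. Leukocyte markers were low on the same array. The summed unlogged signal of the 20 markers was 9916 in control 2, whereas it was 34924 and 46236 in the other control mice and 26647 to 49129 in the knockout mice. Of the 17 markers not dim, 15 had a difference above 0, but 13 of the 17 turned sign when 1 array or another was left out, and the median of the 20 was 0.39 on all arrays and -0.27 without control 2. The T cell markers Cd3e and Cd3g were at 2.20 on every array. Of a further list of 8 plasmacytoid dendritic, T and NK cell markers, 3 were not dim, namely Tcf4, Gzma and Gzmb. Gzma was at 6.35 in control 2 and at 6.37 to 7.33 in the other mice. Tcf4 and Gzmb were not at their lowest in control 2. Tcf4 was at 11.11 there and at 10.97 to 11.47 in the other mice, and Gzmb at 3.89 and at 3.32 to 4.95. The part of these cells in the result for Cxcl10 was not tested.

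Ifi35 was the one gene whose knockout values were all above its control values. It encodes a protein induced by interferon that binds the related factor Nmi. Its values were 11.90, 11.96 and 11.91 (log2) in knockout mice and 11.69, 11.58 and 11.82 in control mice. The difference of 0.23 (SE 0.070, interval 0.037 to 0.42) corresponds to 1.17-fold, with an unadjusted p of 0.0289 from limma and an adjusted p of 1 over all probe sets. With each array left out in turn it ran from 0.17 without control 2 to 0.29 without control 3. A further probe set of Ifi35 also separated the groups, at 9.13, 9.18 and 9.14 in knockout and 8.67, 8.75 and 9.05 in control mice. The remaining one did not, at 8.90, 8.88 and 8.84 in knockout and 8.51, 8.58 and 8.90 in control mice. With the mean of the 3 probe sets the unadjusted p from limma was 0.0517, and with a replicate block 0.0894. Separation of the groups was found for 1 of the 34 genes not dim (2.94%), where it was found for 13.7% of all probe sets not dim. Nmi was at 0.021 (SE 0.029).
The other induced genes overlapped between the groups. Rtp4 (a chaperone of receptors) was at 0.11 (SE 0.13), Parp14 (an ADP-ribosyltransferase) at 0.12 (SE 0.11) and Xaf1 (an antagonist of the apoptosis inhibitor XIAP) at 0.039 (SE 0.044). Without control 2, Parp14 was at 0.014 and Xaf1 at -0.00076. Lgals3bp, a secreted glycoprotein, was at -0.011 (SE 0.17), its lowest and highest values being those of control 2 (11.55) and control 3 (12.15), and at -0.17 without control 2. The guanylate-binding proteins Gbp2 and Gbp3, which attack intracellular pathogens, were at -0.059 (SE 0.11) and 0.074 (SE 0.23). Without control 2 they were at -0.14 and -0.14, and for both the sign depended on the array left out.

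**Figure D3:**
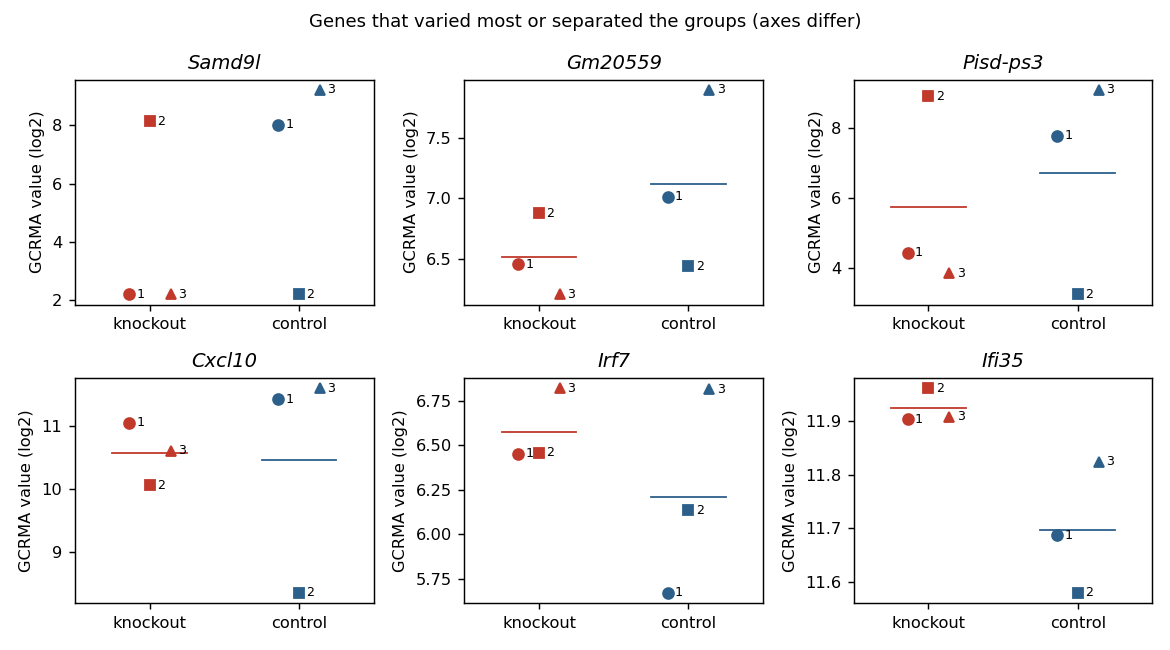
GCRMA value (log2) of Samd9l with Gm20559 and Pisd-ps3, and of Cxcl10, Irf7 and Ifi35, for each knockout mouse (red) and control mouse (blue), numbered by replicate, with horizontal lines at group means except for Samd9l. Samd9l, Gm20559 and Pisd-ps3 are high in knockout 2, control 1 and control 3, Cxcl10 is low in control 2, and Ifi35 alone separates the groups.

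Class I genes were well above background and close to equal in both genotypes. B2m, which encodes β2-microglobulin, was 14.50, 14.48 and 14.45 in knockout mice and 14.45, 14.33 and 14.54 in control mice. H2-D1 and H2-K1, the classical heavy chains, were 14.27, 14.20 and 14.13 against 14.10, 14.18 and 14.25, and 13.37, 13.35 and 13.32 against 13.24, 13.33 and 13.40. The differences of B2m, H2-D1 and H2-K1 were 0.034 (SE 0.060), 0.021 (SE 0.058) and 0.022 (SE 0.045), and that of B2m was -0.020 without control 2. Each of their intervals lay within -0.14 to 0.20, a span much narrower than 1.5-fold. The probe sets of H2-D1 and H2-K1 can share signal with each other and with related class I genes, so that the heavy chains may not be fully distinguished. More broadly, 16 of the genes had several probe sets, and for Stat2, Trim25, Eif2ak2, Parp14 and H2-K1 those not dim differed in sign.
The genes that supply peptides had larger errors. Psmb8, an immunoproteasome subunit, was 10.45, 10.37 and 10.24 in knockout and 10.13, 9.98 and 10.48 in control glomeruli, a difference of 0.16 (SE 0.15), or 0.047 without control 2. Psmb9, a further subunit, was at 0.069 (SE 0.10). Tap1 was 8.76, 8.64 and 8.70 in knockout and 8.44, 8.51 and 8.72 in control mice, and the difference of 0.14 (SE 0.089) had an unadjusted p of 0.181 from limma. Tap2, with which Tap1 forms the peptide transporter of the endoplasmic reticulum, was at 0.034 (SE 0.11). All 7 class I genes were above 0 on the 6 arrays, by 0.021 to 0.16 with a median of 0.034, and each interval included 0 and lay within 1.5-fold. Markers of resident cells also differed in direction between the genotypes. All 6 podocyte markers were above 0, with a median of 0.15 (0.076 without control 3 and 0.25 without control 2). All 9 endothelial markers were below 0 (median -0.16, or -0.065 without control 3). Of the endothelial markers, 4 had an unadjusted p under 0.05 from limma, beside 8.12% of the probe sets not dim. The same 4 had groups that did not overlap, beside 13.7%. Of 7 mesangial and smooth muscle markers, 5 were above 0 and 2 below (median 0.036). Among these Tagln passed the criterion (0.68, SE 0.24, unadjusted p = 0.0458 from limma), as did 0.382% of the probe sets not dim. The part of these markers in the directions of the class I and interferon-induced genes was not tested. Without control 1, 3 of the 7 class I genes were above 0 and 4 below, with a median of -0.017.

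The control mice often lay at both ends of the range. Of the 34 genes not dim, 29 had their lowest value in control 1 (14 genes) or control 2 (15 genes), as had 39.8% of all probe sets not dim, and 17 their highest in control 3, as had 17.2% of these probe sets. Against the mean of the other arrays, the interferon-induced genes not dim (27 genes) stood at a median of -0.19 in control 2 and 0.12 in control 3. The class I genes stood at -0.17 in control 1 and 0.11 in control 3, and at only -0.044 in control 2. On control 2 the leukocyte markers were at -1.94 and the class II MHC genes at -1.40, while the proximal tubule markers were at 1.29. On control 3 the leukocyte markers were at 0.99. On control 2 the podocyte, endothelial and mesangial markers stood at 0.12, 0.032 and -0.041. On control 1 they stood at -0.20, 0.016 and 0.085, and on control 3 at -0.20, 0.20 and -0.18. The shift of the interferon-induced genes on control 2 was thus smaller than those of the leukocyte, class II and tubule genes and larger than those of the glomerular markers. On control 3 the shifts of the interferon-induced and class I genes were smaller in size than those of the glomerular markers. The part of the cells in these shifts was not tested. The counts depended on control 3. Without it, 14 of the 34 genes not dim (41.2%) had all knockout values above both remaining control values, where 23.9% of all probe sets not dim had separated groups in either direction. These were Irf7, Ddx58, Dhx58, Trim25, Usp18, Oas1a, Oasl2, Bst2, Ifitm3, Ifi35, Parp14, Psmb8, Psmb9 and Tap1. No gene passed an adjusted p of 0.05 there, the lowest being 0.807 from limma, and 6 genes had an unadjusted p under 0.05.

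**Figure D4:**
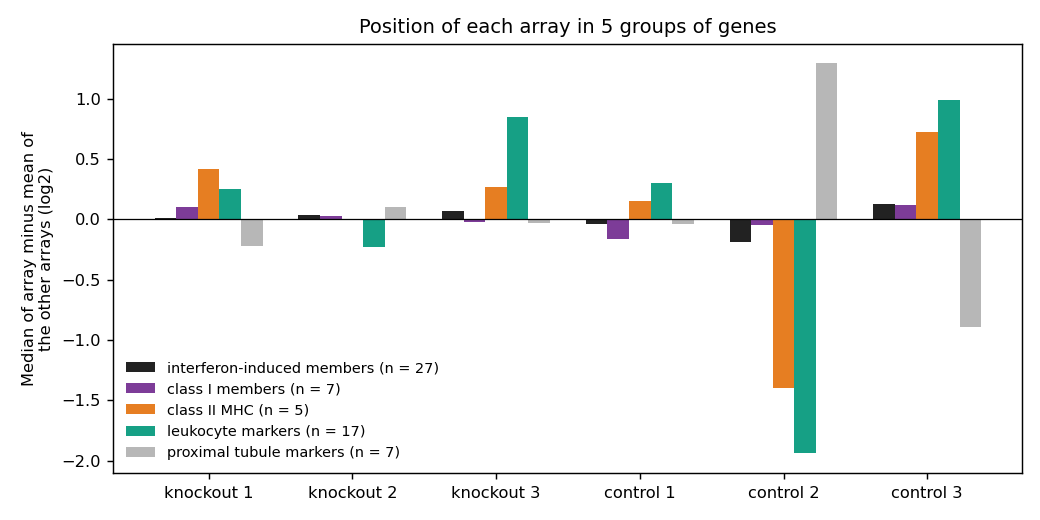
Median over the genes of each group of the value on an array minus the mean of the other 5 arrays (log2), for genes with a mean of at least log2 4. Control 2 is low for leukocyte markers (-1.94) and class II MHC genes (-1.40) and high for proximal tubule markers (1.29), whereas the interferon-induced and class I genes stay between -0.19 and 0.12 on all arrays.

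Genes with and without the ISRE were set side by side. Among the genes not dim with a promoter, the 14 with a match had a median difference of 0.052 (9 above and 5 below 0), and the 15 without a match one of 0.069 (12 above and 3 below). The former, Ifit1, Oas1a, Bst2, Gbp3, Cxcl10 and B2m among them, had differences of -0.16 to 0.22, and the latter, with Samd9l among them, of -2.30 to 0.37. No test was made between them.

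Other genes of the pathway were taken from lists by function. Of 20 genes measured for interferons, receptors and signalling, none passed the criterion, and of the 17 not dim 10 were above 0 and 7 below. The receptor subunit genes Ifnar1 and Ifnar2 were at 0.089 (SE 0.038) and 0.069 (SE 0.10), with Ifnar1 at 8.51, 8.58 and 8.65 in knockout and 8.49, 8.48 and 8.50 in control mice. The groups of Ifnar1 did not overlap for this probe set, 1 of the 17 genes not dim, beside 13.7% of the probe sets not dim. The probe sets of Ifnar1, and those of Ifnar2, differed in sign. Socs3, a feedback inhibitor, had the largest difference of this list, -0.39 (SE 0.77) on all arrays and 0.10 without control 2, and the interferon gamma receptor gene Ifngr1 was at 0.29 (SE 0.30). Of 24 other interferon-induced genes measured, none passed the criterion, and of the 19 not dim 15 were above 0 and 4 below. Irgm1, an immunity-related GTPase, was the one with an unadjusted p under 0.05, at 9.11, 9.16 and 9.25 in knockout and 8.93, 8.99 and 8.90 in control mice (0.23, SE 0.047, adjusted p = 1 from limma). Herc6, an Isg15 ligase, also separated the groups (0.23, SE 0.10, unadjusted p = 0.0896 from limma). Groups separated for these 2 of the 19 genes not dim, beside 13.7% of the probe sets not dim. An unadjusted p under 0.05 was found for 8.12% of those probe sets. The largest differences in size were those of Ddx60, a helicase (-0.43, SE 0.19), of Irgm2 (0.26, SE 0.20) and of Ifi47 (0.26, SE 0.19), both GTPases of the same family as Irgm1. Ddx60 had a mean of only 4.51, near the limit of log2 4 under which a signal is dim. Ifnar1, Ifnar2, Irgm1, Herc6 and Nmi were picked after their values were seen.
Of 10 further class I genes, 6 were above 0 and 4 below. Nlrc5, the transactivator of class I genes, separated the groups at 5.68, 5.59 and 5.71 in knockout and 5.49, 5.19 and 5.50 in control mice, a difference of 0.27 (SE 0.10). Tapbpl, which edits class I peptides, did so at 0.18 (SE 0.074). The unadjusted p from limma was 0.0576 for Nlrc5 and 0.0626 for Tapbpl, and both intervals included 0. Groups separated for these 2 of the 10 genes, beside 13.7% of the probe sets not dim. Calr, a chaperone of class I assembly and of many other proteins, was at 0.18 (SE 0.096). Class II genes were low in the same mouse as the leukocyte markers. The 5 that are not dim were above 0 by 0.28 to 0.42 on all arrays, and their values in control 2 were below those of every other array. H2-Aa, for example, was 12.86, 12.55 and 12.79 in knockout and 12.73, 11.39 and 13.04 in control mice. Without control 2, the median of the 6 measured class II genes was -0.17, beside 0.35 on all arrays.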

How the data were processed

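RNA of isolated glomeruli was hybridised to Affymetrix mouse genome expression arrays, 1 per mouse, 3 knockout and 3 control. The deposited values are log2 intensities, which the authors obtained with GCRMA (2.30.0), including quantile normalization between arrays. Probe sets were named by the platform annotation: 34958 of 45101 had 1 gene symbol, 932 several and 9211 none, and only the first were named. The probe set with the highest mean stood for a gene. Array medians were 2.66 to 2.69 and correlations between arrays 0.973 to 0.995. The small number of arrays limits the precision, and p-values cover the spread between these mice.

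Groups were compared with limma (3.58.1, R 4.3.3), two-sided, with Benjamini-Hochberg adjustment over all probe sets, and with SAM as the methods' test. The fit was tested on simulated data. The genes and lists were chosen by known function, but with earlier results of these data known. Values per array were due for genes that passed the criterion or did not overlap, those with the 3 largest ranges or differences, and the brightest class I genes, and were added for others. From each other list up to 4 genes with the largest differences were named. Alternatives were SAM, an intensity trend with a robust prior, filters on dim and on constant probe sets, median centring, quantile normalization, an offset of 16, a replicate block, the mean of probe sets, a 2-fold criterion and each array left out.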

Additional observations from a re-analysis of the deposited data

How the results depend on the processing

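The count of genes past the criterion was 0 and the count with an adjusted p under 0.05 from limma 0 under each alternative that kept all arrays. With each array left out in turn, the former ran from 0 to 1 (Irf7 without control 3) among genes higher in knockout, and the number of genes with separated groups from 1 to 14, beside 1 on all arrays. It was 3 without control 1, 4 without control 2 and 14 without control 3. Without control 3, 23.9% of all probe sets not dim had separated groups, beside 13.7% on all arrays. This share was not computed without control 1 or control 2, so the counts of 3 and 4 cannot be set against it. The median of the interferon-induced genes ran from 0.013 without control 2 to 0.14 without control 3, beside 0.085, and that of the class I genes from -0.017 without control 1 to 0.11 without control 3, beside 0.034. Causes were not tested. Median centring moved all probe sets by 0.019. Deviations of same-numbered knockout and control arrays from their group means had correlations of 0.095, 0.35 and 0.25. Arrays with different numbers were not compared in this way, so these values cannot decide whether the numbers pair the mice. With the replicate number as a block 0 genes passed and the medians were 0.085 and 0.034.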
